A study of Mus musculus with 8 samples.

Results

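The genes examined here were 8 transcription factor genes of the hepatocyte nuclear factor network, Hnf4a, Foxa1, Foxa2, Foxa3, Onecut1, Onecut2, Nr5a2 and Prox1, chosen by name out of 21938 protein-coding mouse genes. These genes and the comparison lists used below were chosen with earlier results of these data known. Open chromatin was mapped by ATAC-seq, in which a transposase inserts sequencing adapters into accessible DNA. The nuclei came from frozen adult liver of C57BL/6 mice, given as C57BL/6J in the study's methods. The control group held 4 libraries, whose titles carry the word cre, and the Alb-D2KO group held 4 libraries from mice in which floxed Dio2, the gene for the type 2 deiodinase that makes active thyroid hormone, was deleted in hepatocytes by Cre recombinase under the albumin promoter. Age is given only as adult, 50000 nuclei entered each reaction, and nuclei of every liver cell type were included, so a change within hepatocytes and a change in the share of hepatocytes cannot be told apart. Open regions were called on grouped libraries, read here as a single call per genotype, and the lists hold no value per library. No value below therefore has a replicate error or a test.

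An RCA, or region of reduced chromatin accessibility, was a region called open in control liver that no region called in Alb-D2KO liver overlapped. Of 8031 RCAs on the mm10 genome, 20 lay over the bodies of the 8 genes or within 10 kb of them. Of the 250 regions called open only in Alb-D2KO liver, 0 did. The area of an RCA is the area under the curve of −log10 p along the region, so it grows both with how strongly reads pile up and with width. An RCA states that a call was lost, not by how much accessibility fell. Dio2 itself had 0 RCAs within 10 kb, and its nearest RCA was 930 kb away, so these lists do not show the deletion.

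HNF4A is a nuclear receptor that binds DNA as a homodimer and is needed to form and keep the hepatocyte state, and the FOXA proteins are pioneer factors, able to bind their sites on nucleosomes and open chromatin for other factors. ONECUT1 (also called HNF6) and ONECUT2 are cut-homeodomain factors of liver and biliary development, NR5A2 (LRH-1) is a monomeric nuclear receptor of bile acid and cholesterol metabolism, and PROX1 is a homeodomain protein that marks early hepatoblasts and acts with HNF4A and NR5A2 as a corepressor. These factors occupy and regulate each other's genes in a cross-regulatory circuit, and Hnf4a is transcribed from an upstream promoter, P2, that is used mainly in the fetal liver and the pancreas, and a downstream promoter, P1, that dominates in adult hepatocytes.

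The DNA of 7 member RCAs is shown because the values below turn on them. The sequences are from the + strand of mm10, in lower case, and capitals mark letters of a searched motif. The P2 sequence, at chr2:163506665-163506807, runs from the left edge of the RCA over the P2 start of Hnf4a to the base before that start. Its capitals, 163506798 to 163506804, are an ONECUT motif read on the other strand. The others hold 60 bases on either side of the RCA summit. They come from the RCA with the largest area at Hnf4a (intron, chr2:163540797-163540917, capitals a CEBP motif), the single RCA of Foxa1 (coding exon, chr12:57543297-57543417, an SP1 motif), the single RCA near Foxa2 (exon of a long noncoding RNA, chr2:148040168-148040288), the RCA inside Foxa3 (intron, chr7:19016159-19016279, an ONECUT motif), the RCA nearest the start of Nr5a2 (intron, chr1:136959544-136959664, a FOXA motif) and the RCA upstream of Prox1 (intron of Prox1os, chr1:190174420-190174540).
Hnf4a P2: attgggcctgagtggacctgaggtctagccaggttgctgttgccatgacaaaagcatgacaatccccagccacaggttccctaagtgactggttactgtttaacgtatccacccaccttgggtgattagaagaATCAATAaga
Hnf4a intron: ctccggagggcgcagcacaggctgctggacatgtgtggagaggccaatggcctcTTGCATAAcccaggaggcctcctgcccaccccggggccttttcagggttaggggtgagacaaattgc
Foxa1: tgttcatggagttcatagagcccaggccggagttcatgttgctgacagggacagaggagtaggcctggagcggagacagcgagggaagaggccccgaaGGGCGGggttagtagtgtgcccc
Foxa2: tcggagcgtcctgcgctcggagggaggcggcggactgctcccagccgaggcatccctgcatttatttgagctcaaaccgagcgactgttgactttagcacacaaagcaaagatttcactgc
Foxa3: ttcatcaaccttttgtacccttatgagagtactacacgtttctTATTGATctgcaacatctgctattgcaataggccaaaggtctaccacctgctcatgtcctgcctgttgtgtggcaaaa
Nr5a2: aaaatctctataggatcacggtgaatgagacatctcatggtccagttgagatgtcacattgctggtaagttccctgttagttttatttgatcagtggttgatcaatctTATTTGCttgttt
Prox1: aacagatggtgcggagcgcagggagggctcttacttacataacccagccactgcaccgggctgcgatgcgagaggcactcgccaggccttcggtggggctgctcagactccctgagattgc

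Taken as a group, 7 of the 8 genes had at least 1 RCA within 10 kb, beside 25.1% of all protein-coding genes, and 5 of 8 had an RCA over the gene body itself, beside 15.7%. A gene with 4 or more RCAs was uncommon in the genome (1.57% of protein-coding genes), and Hnf4a, Onecut2 and Nr5a2 were 3 such genes of the 8 (37.5%). The share was the same among 32 other liver transcription factor genes (12, or 37.5%), and 5 of 29 known target genes (17.2%) also had as many. With an area of at least 300, Hnf4a, Onecut2 and Nr5a2 had 3, 1 and 3 RCAs, so none kept 4. With −log10 q of at least 3 they had 4, 3 and 3, so only Hnf4a kept 4. Shares of other genes under these limits are not given here. Regions gained in Alb-D2KO liver were rare throughout, with 1.01% of protein-coding genes having such a region within 10 kb, so their absence at 8 genes carries little information. The nearest such region was 758 kb away for Prox1, the shortest of these distances, and 14451.8 kb away for Foxa1, the longest. Counts per gene fell in the order Hnf4a (6), Onecut2 and Nr5a2 (4 each), Foxa3 (3), Foxa1, Foxa2 and Prox1 (1 each) and Onecut1 (0).

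**Figure D1:**
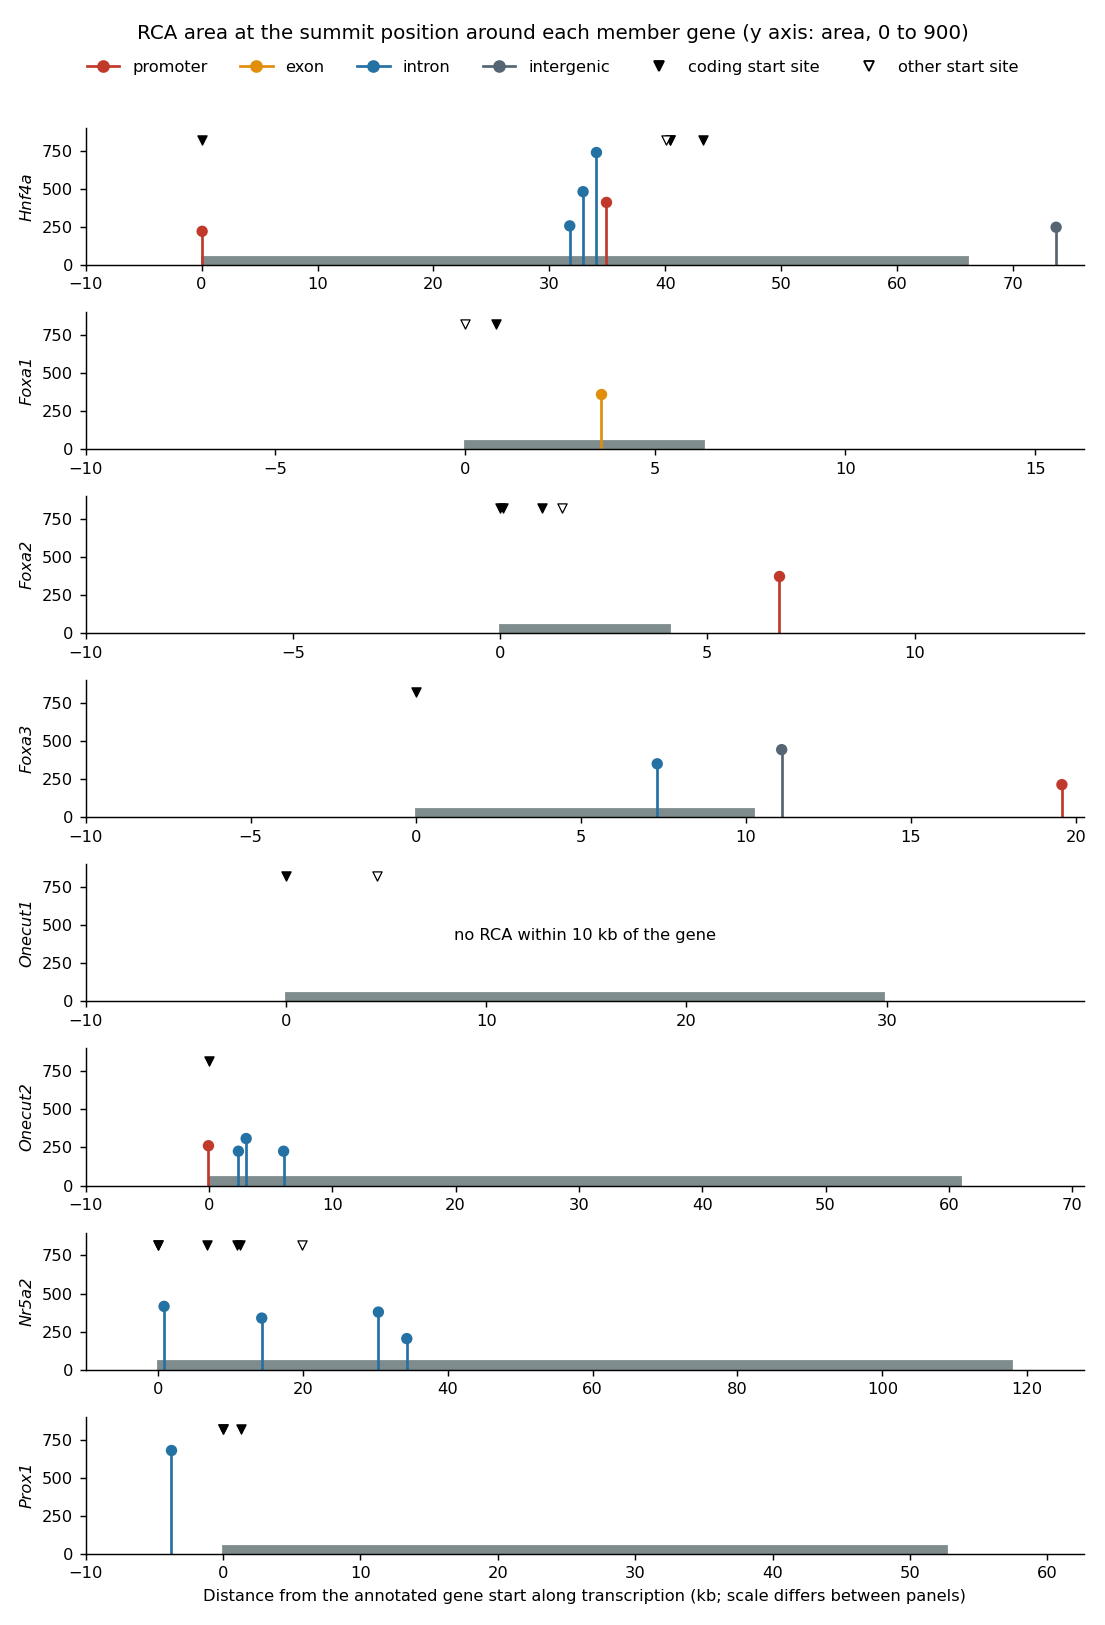
RCAs of each member gene, with the horizontal axis giving the distance of the RCA summit from the annotated gene start along transcription in kb (a different scale in each panel), the vertical axis the area of the RCA, the grey bar the gene body and triangles the annotated start sites. Hnf4a shows 4 RCAs crowded within its body, short of its downstream start sites, while Onecut1 has none.

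Longer genes hold more RCAs, so each member was set beside the protein-coding genes at most 20% shorter or 25% longer. The median of these similar genes was 0 RCAs for every member. Hnf4a had 6 RCAs where 1681 similar genes averaged 0.521 ± 1.0 (SD over genes), and 6 of them (0.357%) had as many. Among all 21938 protein-coding genes, Hnf4a ranked 34 by RCA count in a tie with other genes at 6, and 74 genes (0.337%) had at least 6. Onecut2 was matched by 2.18% of 1789 similar genes and Nr5a2 by 4.28% of 1145. Foxa3, a short gene, had 3 RCAs, and 2.28% of 2503 similar genes had as many. For the genes with a single RCA the count was less unusual: 18.2% of similar genes had as many as Foxa1, 18.8% as many as Foxa2 and 30.3% as many as Prox1. Onecut1, with 0, was like 73.1% of its 2645 similar genes. Genes closed in liver are among the similar genes and cannot lose an open region, so these shares do not compare the members with genes equally open in control liver.

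**Figure D2:**
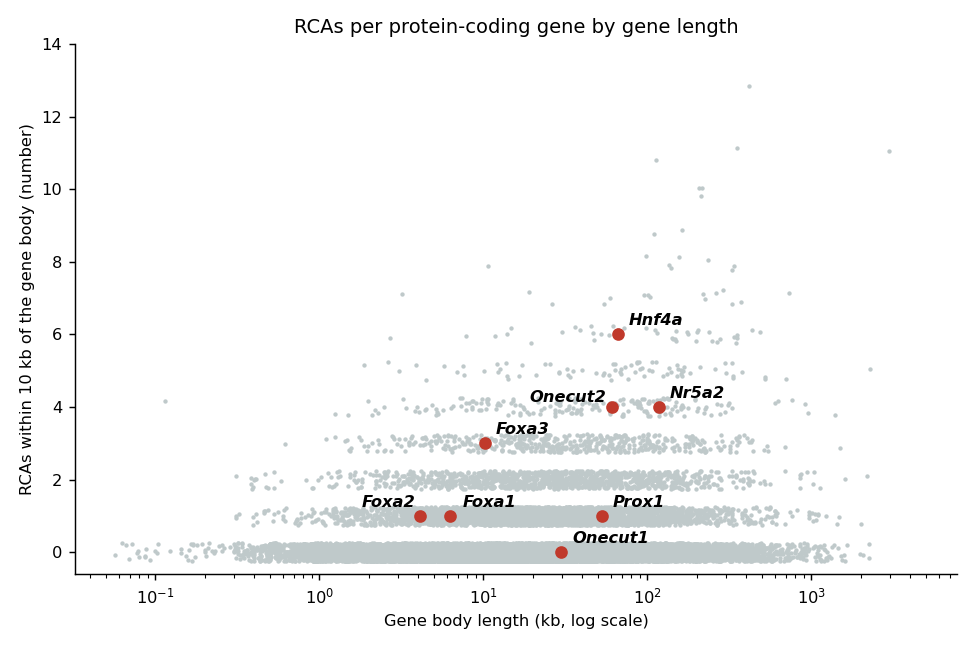
RCAs within 10 kb (vertical axis, number) by gene body length (horizontal axis, kb on a log scale) for protein-coding genes (grey, jittered vertically, with 1 gene above the axis limit of 14 not drawn) and the 8 members (red). Hnf4a, with 6 RCAs, lies above most genes of its length, and Onecut1, with 0, lies in the lowest band.

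Hnf4a (chr2:163506808-163572910, + strand) carried the most RCAs and the largest summed area of the 8 genes, 2348.56. The RCA chr2:163506665-163507077 lay over the P2 start at 163506808, was 413 bp wide and had an area of 219.8, which 16.2% of all RCAs did not exceed. It covered coding and untranslated sequence of the P2 first exon and also the antisense noncoding gene Hnf4aos. After a gap of 31345 bp came 4 RCAs in a row with no kept region between them, from 163538423 to 163541937, all inside the gene between P2 and the downstream start sites. Such runs were common in the list, with 370 runs of 4 or more that held 23.6% of all RCAs and reached 17 regions at the longest. The 4 RCAs of Hnf4a had areas of 255.6, 480.0, 737.1 and 409.5 and widths of 443, 775, 708 and 341 bp. All 4 also lay over Hnf4aos, whose start was the nearest annotated start, 2827, 1655, 351 and 0 bp away. The RCA with the area of 737.1, chr2:163540634-163541341, had the largest area of the 20 and ranked 55 of 8031 RCAs by area. The last of the run, chr2:163541597-163541937, was of the promoter class only through the start of Hnf4aos at its position, since it lay 4880 bp from the nearest Hnf4a start.

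The 4 RCAs of this run spanned 3515 bp and had a summed area of 1882.23. Of 7959 sets of 4 neighbouring RCAs in the list, 3 were as close together, Hnf4a included. The cutoff was the span of this run itself, at the member with most RCAs, so the 3 do not measure how unusual it is. The others, looked up after their positions were seen, lay over Gng7 and at chr9:46255970-46259425. The latter stretch has no protein-coding gene body, and Apoc3, a known target named below, lies near it at chr9:46232933-46235636. The remaining RCA of Hnf4a, chr2:163580361-163580571, was intergenic, 7451 bp past the end of the gene, with an area of 246.5. By summed area, the similar genes closest to Hnf4a were Wbp1l (6 RCAs, 2370.05), Scarb1 (5 RCAs, 2247.56), which encodes the hepatic high-density lipoprotein receptor, and Serpina3m (1 RCA, 2481.75), a serine protease inhibitor gene.

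The annotated start sites of Hnf4a fall into these 2 promoter groups. The P2 start lay inside an RCA, whose summit −log10 q of 2.54 was the lowest of the 20 and which is lost with either an area of at least 300 or a −log10 q of at least 3. The other 4 starts, from 163546817 to 163550083, lay 4880 to 8146 bp from the nearest RCA. Region numbers, which run in order along the genome within the control call, tell how many control regions were kept, that is, missing from the list of lost regions because a region of Alb-D2KO liver overlapped them. Between the run of 4 and the downstream RCA, 2 control regions were kept in the 38423 bp that hold these 4 starts, and 1 was kept between P2 and the run. The positions of kept regions are not in the lists, so whether they lie on the downstream starts cannot be read from them.

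Onecut2 (60968 bp, + strand of chromosome 18) had 4 RCAs with consecutive numbers, so 0 control regions were kept between the first and the last, over 6306 bp. This was 1 of the 370 runs of 4 or more, which held 23.6% of all RCAs. The first, 234 bp wide with an area of 261.3, lay over the start site, in the promoter and untranslated region. The other three were intronic, with areas of 225.2, 308.3 and 225.0, and lay 2282, 2715 and 5912 bp from the start. All 4 were modest in area, summing to 1019.77, and only 1 of them reached an area of 300. Onecut1 (chr9:74861921-74891781), which encodes HNF6, had none. Its nearest RCA, chr9:74911283-74911673 (area 274.9), lay 19502 bp away, and in the whole 109.9 kb between its flanking RCAs 1 control region was numbered, which was kept. The absence of RCAs at Onecut1 was thus an absence of called control regions more than a keeping of many.

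The FOXA genes are small, and none of their 5 RCAs lay at a start of a FOXA gene. Foxa1 (chr12:57540628-57546916) had 1 RCA, chr12:57542957-57543489, in its coding exon, 533 bp wide with an area of 361.7, and 2632 bp from its nearest start. Foxa2 (chr2:148042877-148046969) had 1, chr2:148040103-148040610, with an area of 377.4, past the end of the gene at the start of the long noncoding RNA gene 9030622O22Rik. This RCA was of the promoter class through that noncoding RNA, and the 4 starts of Foxa2 lay 4854 to 6359 bp from it.

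Foxa3 (chr7:19013284-19023538), a FOXA gene active in the adult liver, had 3 RCAs with a summed area of 1008.22, of which 1 had a summit −log10 q of at least 3. The intronic chr7:19016089-19016355 was narrow (267 bp) but had an area of 350.7, or 1.31 per bp, exceeded among the 20 only in Nr5a2. The intergenic chr7:19011970-19012696, 588 bp past the gene end, was wider (727 bp) with an area of 443.6. The smallest in area, chr7:19003922-19004113 (area 213.9), lay 9171 bp away at the start of Irf2bp1, a neighbouring gene. It is counted here only through the 10 kb limit. Between it and the others 3 control regions were kept.

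Nr5a2 (chr1:136842571-136960448) had 4 RCAs, all intronic and all in the part of this long gene nearest its starts. The densest, chr1:136959529-136959843, had an area of 415.5 over 315 bp (1.32 per bp, the highest of the 20) and lay 537 and 605 bp from the most upstream start sites. The others had areas of 338.6 (chr1:136946031-136946385), 378.1 (chr1:136929837-136930243) and 203.8 (chr1:136925959-136926388), the last being the smallest area of the 20. The remaining 4 starts of Nr5a2 lay 2788 to 5899 bp from an RCA, and 1 control region was kept in the gap that holds 3 of them.

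Prox1 (chr1:190118035-190170714) had a single RCA, large in area but with a low summit −log10 q of 2.80, beside a lower quartile of 2.91 in the list, so Prox1 had 0 RCAs with a −log10 q of at least 3. The region chr1:190174421-190175607 was 1187 bp wide, the widest of the 20, with an area of 680.1 that ranked 94 of 8031. It lay 3707 bp upstream of the gene, in an intron of Prox1os, a noncoding gene on the opposite strand. Area per bp was only 0.573, so its area came from width, whereas the Hnf4a region with the largest area reached 1.04 per bp. Of genes similar to Prox1 in length, 6.59% had a summed area as large.

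**Figure D3:**
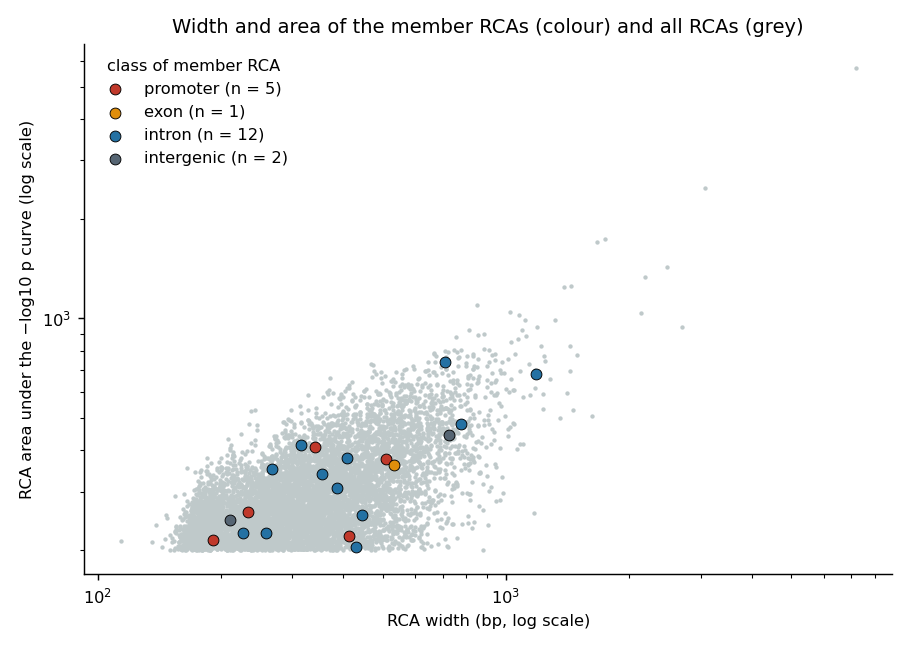
Area of each RCA (vertical axis, log scale) by its width in bp (horizontal axis, log scale), for all RCAs (grey) and the 20 member RCAs coloured by class. The intronic member RCAs of Hnf4a (737.1) and Prox1 (680.1) have the largest areas of the members, and all 20 fall within the range of the grey points.

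Across the 20 regions, 15 lay over gene bodies, 1 upstream and 4 downstream. By class, 5 (25%) were at an annotated start of any gene, beside 19.4% of all RCAs, 12 (60%) were intronic, beside 40.0%, 1 was exonic and 2 were intergenic, beside 30.4% for intergenic RCAs. The choice of gene neighbourhoods favours introns over intergenic sequence, so the classes are not read further. Only the RCAs over P2 of Hnf4a and over the start of Onecut2 lay at a member's own start. Neither reached an area of 300, and only that of Onecut2 had a −log10 q of at least 3 (3.13). Of the 24 annotated start sites of the 8 genes, 2 were within 200 bp of an RCA, 4 within 1 kb and 12 within 5 kb, beside 3.31%, 6.03% and 11.7% of the 93504 start sites of all protein-coding genes. Start sites of 1 gene share their nearest RCA, so the 24 are not independent. The RefSeq promoter table held 12 promoters for 7 members, all but Onecut2, and the RCAs overlapped 1, that of Hnf4a P2, beside 3.13% of all promoters in it.

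Member RCAs were slightly larger than the list as a whole. Their median area was 345 (203.8 to 737.1) beside 278, and their median width 396.5 bp beside 326 bp. Area per bp was alike (median 0.899 beside 0.909), as was −log10 q at the summit (3.09 beside 3.14), and 12 of 20 (60%) had an area of at least 300, beside 40.8%. The member RCAs were therefore wider rather than denser than the list.

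Region numbers also bound how much of the open chromatin at these genes was lost. From the first to the last RCA of the 4 genes with several, 17 of 24 numbered control regions were lost (70.8%). The Wilson 95% interval, 50.8 to 85.1, covers counting error only and treats neighbouring regions as independent. It serves here only as the margin for alternatives. At most 35.9% of control regions in the genome were lost, but the 2 shares cannot be compared. The ends of these spans are lost regions by construction, and strictly inside them 9 of 16 were lost. Out to the next RCA on either side of all 8 genes, 20 of 73 were lost (27.4%). The true share within 10 kb lies between that value and 74.1% (20 of 27), a range that includes 35.9%, so the members are not shown to have lost more than other open chromatin. The highest region numbers in the lists put control regions at 22368 or more and Alb-D2KO regions at 14825 or more, so these are floors and 35.9% is an upper limit. Whether sequencing depth differed between the groups is unknown from the lists and its part in the result was not tested.

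**Figure D4:**
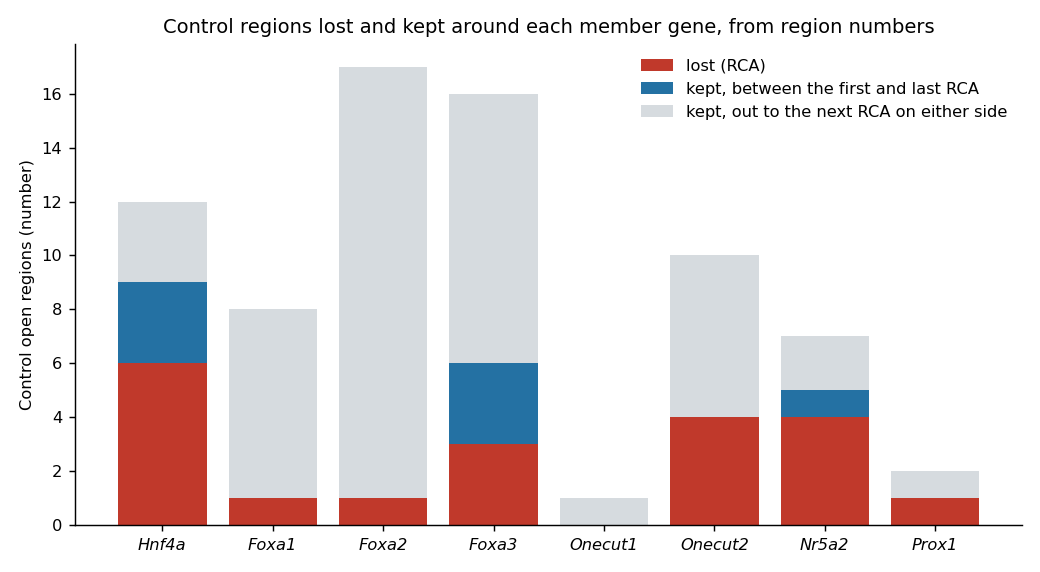
Control open regions around each member gene (vertical axis, number), split into lost (RCAs), kept between the first and last RCA, and kept out to the next RCA on either side, which may lie beyond 10 kb. Onecut2 lost all 4 between its first and last RCA, Hnf4a lost 6 of 9, and Onecut1 had 1 region, which was kept.

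Motif letters were searched on both strands within 150 bases either side of each summit, and each count is set beside the share of the windows of the same length at 8021 RCAs on the assembled chromosomes. HNF4 motifs (CAAAGTCCA, CAAAGGTCA, CAAAGTTCA or CAAAGGCCA) were found in 0 of 20 member windows and 8.04% of all. FOXA motifs (TGTTTAC, the variant TGTTTGC, the variant TATTTAC and the variant TATTTGC) were found in 7 (35%) and 22.4%, in windows of Hnf4a, Nr5a2 and Onecut2. ONECUT motifs (TATTGAT and the variant TATCGAT) were found in 3 (15%) and 4.81%, 1 each at P2 of Hnf4a, near Foxa2 and in Foxa3, so letters of this family stood in windows of other member genes. The HNF1 motif (GTTAATNAT), bound by a further hepatocyte nuclear factor, occurred in 1 window, that of the Nr5a2 RCA nearest its start, and in 1.73% of all. The NR5A2 motif (CAAGGTCA) occurred in 1 window of Hnf4a, and in 3.44%. The CEBP motif (TTGCNNAA) occurred in 4 (20%) beside 18.5%, and the SP1 motif (GGGCGG) in 8 (40%) beside 17.7%. A thyroid hormone receptor direct repeat, 2 copies of AGGTCA 4 bases apart, occurred in 0 member windows and 2 of all. The letters AGGTCA also end the NR5A2 motif and the HNF4 motif CAAAGGTCA, so these searches overlap. No motif was found in 5 member windows and in 41.5% of all. These matches are letters only, and none is evidence of binding.

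The member windows were richer in G and C than the list. Median GC content was 55.3% (35.2% to 67.4%) beside 51.2%, and the median number of CpG pairs was 7.5 beside 5. The SP1 letters are all G and C, and the windows compared were not matched for GC content. The part of base composition in the SP1 share was not tested. The window with the lowest GC content was that of Nr5a2 near its start, which held FOXA and HNF1 letters, and that with the highest was the intergenic RCA of Foxa3. Sequence masked as repeat exceeded 10% in 8 of 20 windows beside 34.0%.

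Other genes of the liver network also carried many RCAs. Of 32 other liver transcription factor genes, 23 (71.9%) had an RCA within 10 kb, the highest counts being Nfib (13), Rora (7) and Nr1i2 (6), which encodes the xenobiotic receptor PXR, with Nfia also at 6. These counts are not set against gene length: Nfib spans 416 kb, Rora 734 kb and Nfia 346 kb, while Cebpa, named after its values were seen, had 5 RCAs at 2.64 kb. Of 29 textbook targets of the member factors, 23 (79.3%) had one, led by Apoc3 (6), Apoa1 (5) and Scarb1 (5), with Ppara also at 5. Apoc3 and Apoa1, which encode apolipoproteins of plasma lipid transport, are neighbours whose 10 kb windows overlap. The targets without an RCA were Serpina1c, Pklr, F9, Otc, Igfbp1 and Cyp7a1. Cyp7a1 encodes the rate-limiting enzyme of bile acid synthesis and is a target of NR5A2 and HNF4A. Of 20 paralogs, 8 (40%) had an RCA, led by Foxn3 (7), Foxo3 (4) and Foxk1 (2), with Foxo1 also at 2, and Foxn3 spans 374 kb. Among the closest relatives of the other members, Onecut3 had 1 RCA, and Hnf4g, Nr5a1 and Prox2 had none. The share of members with an RCA, 7 of 8, stood beside these shares without a test, and nothing in it is called particular to the 8 genes.

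Marker genes of liver cell types give the context. Of 7 hepatocyte markers, 5 had an RCA (Apoa1 5, Tat 4, Alb 2, Asgr1 1 and Ttr 1). Of 6 cholangiocyte markers 1 had an RCA, Sox9, and of 5 endothelial markers 2, Pecam1 and Stab2. Of 5 stellate cell markers and 5 Kupffer cell markers, 0 had any. The lists hold lost and gained regions only, so openness of a marker in both genotypes cannot be read, and the part of cell composition in the result was not tested.

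**Figure D5:**
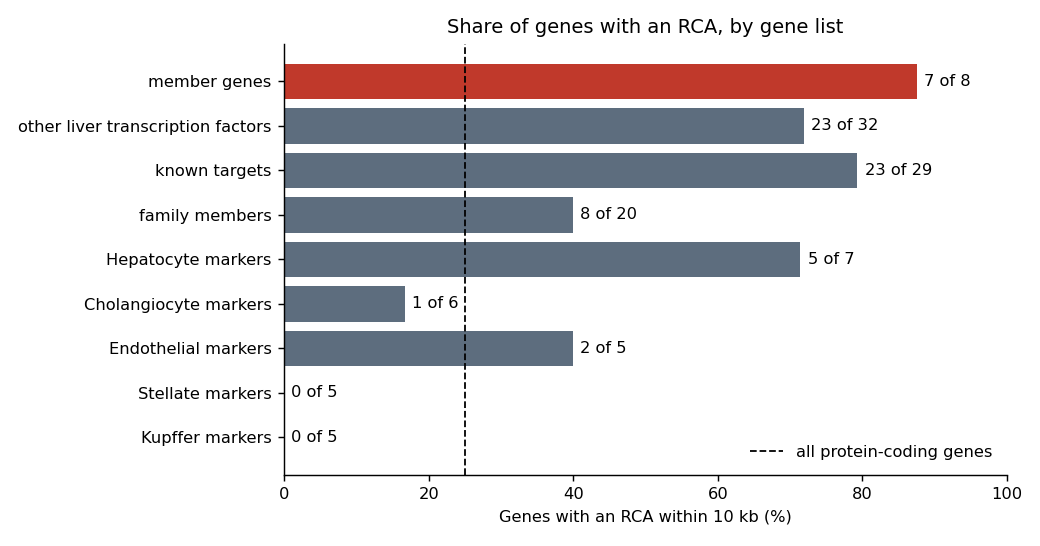
Share of genes with an RCA within 10 kb (horizontal axis, percent) for the members and each comparison list, with the number of genes beside each bar and a dashed line at the share of all protein-coding genes, 25.1%. Members, other liver transcription factors, known targets, family members, hepatocyte markers and endothelial markers lie above the line, cholangiocyte markers lie below it, and stellate and Kupffer markers are at 0.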

How the data were processed

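ATAC-seq libraries, 4 control and 4 Alb-D2KO, were grouped by the genotype given with each sample. The authors trimmed adapters, aligned reads to mm10 with BWA 0.7.17, removed duplicate and poorly mapped reads, called regions with Genrich 0.6 at q of 0.05 on grouped libraries, leaving out a blacklist merged from the peaks of single-library runs where no region could then be called, and subtracted regions that overlapped the other genotype. The call was read as 1 per genotype, since region numbers run separately in each list. In the deposited lists, the score is area per bp times 1000 with a ceiling and was only checked. The deposited signal is the area under −log10 p. The deposited −log10 q is that of the summit, and the −log10 p of the summit (2 columns) was not used. Gene bodies and start sites were from GENCODE M21, an mm10 release but not the release of the study's methods. Promoter class meant within 200 bp of any start, tested before exon, intron and intergenic. Overlap was 1 bp or more. The list held no read counts, so depth is unknown. Counts were made with Python 3.11.15 and pandas 2.3.3 and tested on simulated data, and sequences were read with pysam 0.24.0 from mm10. Named genes were mostly the members, the nearest genes and the 3 list genes with most RCAs, with ties. For Hnf4a they included the 3 similar genes closest in summed area. Dio2, close relatives of the members, targets without an RCA and cell type markers with an RCA were also named. Cebpa and Gng7 were named outside these rules. The members and lists were chosen with earlier results of these data known. Alternatives changed the distance, area, q, width, merging, promoter window and length band.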

Additional observations from a re-analysis of the deposited data

How the results depend on the processing

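Of 72 alternative values, 60 kept within the margin set (1.5 times for counts, the Wilson interval for the share) and 12 moved. Some of the 60 could not move, so the tally does not measure stability. A count of 0 Alb-D2KO-only regions cannot fall under stricter limits. Merging within 100 bp joined no member RCAs, whose smallest gap was 174 bp. With an area of at least 300, the member RCAs went from 20 to 12, known targets with an RCA from 23 to 13, and RCAs at annotated starts from 5 to 2. With −log10 q of at least 3 these were 13, 15 and 3. The 2 starts left by the area limit were those of Hnf4aos and 9030622O22Rik, with Onecut2 added under the q limit. Neither limit kept the RCA over Hnf4a P2. Stricter limits remove regions by construction. Under the area and q limits in turn, Hnf4a had 3 and 4 RCAs, Onecut2 1 and 3, Nr5a2 3 and 3, Foxa3 2 and 1, and Prox1 1 and 0. RCAs at starts numbered 3 over gene bodies only, 13 with a window of 3000 bp and 2 with the members' own starts only. The lost share of 70.8% became 86.7% for gene bodies only, 88.2% for 5 kb and 27.4% out to the flanking RCAs. At 25 kb, Onecut1 had 1 RCA and Hnf4a 7. No paired analysis was possible and no library could be left out, because the lists hold calls on grouped libraries and no values per library. Depth is unknown, so a region just below the call in Alb-D2KO liver and a closed region cannot be told apart.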
